A study of Mus musculus with 19 samples.

Results

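Autosomal genes were compared between female and male APP23 mice in RNA-seq of the cortex. The 19 libraries of the series, 1 per mouse, fall into 11 females and 8 males by their sex label, and all 19 were used. Of 14996 genes in the table, 14360 lie on autosomes, and 14207 of these had enough reads to be tested. APP23 mice carry a human APP751 transgene with the Swedish mutation, driven in neurons by the Thy1 promoter, and all animals of both sexes were hemizygous for it on a C57Bl6 background. No mouse without the transgene is in the comparison. The groups were 5 HFD females, 6 ND females, 4 HFD males and 4 ND males. HFD, a Western diet with 40% of calories from fat, was given for 3 months from a mean age of 11.7 months. ND mice stayed on standard chow over the same time, and behavior was tested at a mean age of 14.7 months. The sex difference below is females over males with diet as an additive term, unless a single diet is named.

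APP23 mice accumulate amyloid plaques in the cortex with age, and female mice of this line are known to carry more amyloid than males of the same age. Microglia that surround plaques switch on a typical program through the receptor TREM2 and its adaptor TYROBP, with lysosomal proteases, lipid handling genes and surface receptors, while astrocytes near plaques turn reactive and raise GFAP. The dissected cortex can also hold pieces of neighbouring regions, such as striatum or olfactory bulb, whose neurons are told by genes that the neocortex hardly uses.

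Library depth differed between the sexes without overlap. Female libraries held 11727151 to 17178044 reads (median 14595514), and male libraries 9308206 to 10844280 (median 10225289.5). The labels give no sequencing run, so depth, any unrecorded batch and sex cannot be told apart. Transcripts of ribosomal and related RNA moved with sex as well. Rn28s1, the 28S ribosomal RNA, had 1887 to 2397 RPM (counts divided by the library total and brought to a common scale) in females and 2942 to 3502 RPM in males. Lars2, a mitochondrial leucyl-tRNA synthetase gene, had 1037 to 1205 RPM in females and 1619 to 1937 RPM in males. The part of these technical measures in the results was not tested. Thinning every library to the lowest total left 738 genes higher and 655 lower, against 904 and 699 at full depth. Thinning evens out the totals only and cannot remove a batch that follows sex. Xist was at 680 RPM or more in every library labelled female and at 0.0991 RPM or less in every library labelled male, so the sex labels fit.

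**Figure D1:**
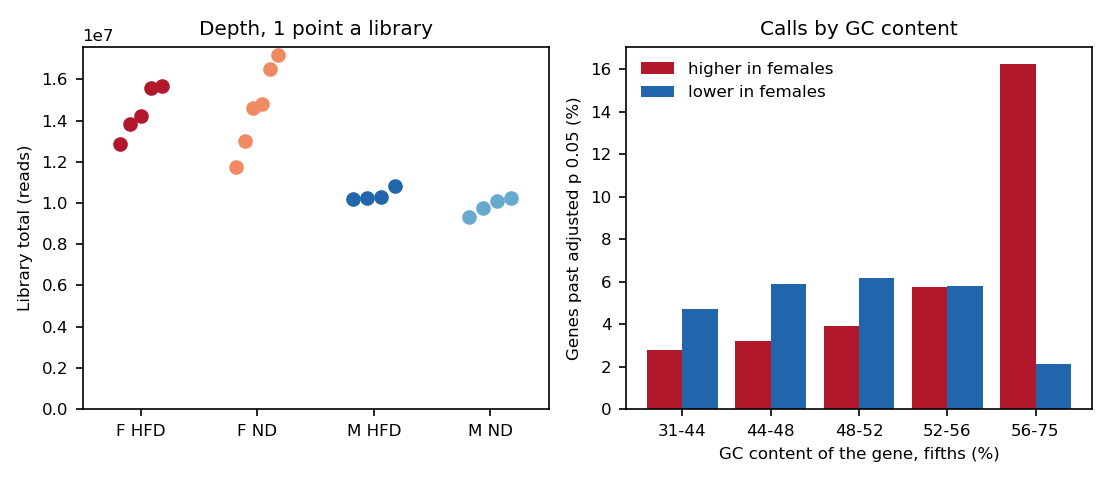
Left, library totals in reads on the y axis for the 4 groups (F, females; M, males), 1 point a library; every female library lies above the highest male one, 10844280 reads. Right, the share of tested autosomal genes past an adjusted p of 0.05 in each of 5 equal classes of gene GC content, red for genes higher and blue for genes lower in females; in the GC-richest class 16.2% were higher and 2.12% lower.

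Across all tested autosomal genes 904 were higher in females (6.36%) and 699 were lower (4.92%) at an adjusted p under 0.05 by edgeR's quasi-likelihood test. The median log2 fold change over all of them was 0.00. The shares of 6.36% and 4.92% are the background for each list count below, unless a single diet is named. Calls followed base composition: in the richest of 5 equal classes by GC content, 16.2% were higher and 2.12% lower, while in the poorest 2.76% were higher and 4.71% lower. They also followed gene length. In the shortest of 5 equal classes 11.2% were higher and 2.34% lower, and in the longest 2.58% and 7.78%. With an offset for GC content and gene length in each library, chosen after seeing the data, 633 genes were higher and 650 lower. Most differences were modest against the spread between mice, and in only 50 genes (0.352%) did every female lie above every male, with 24 (0.169%) the other way round. Leaving out HFD male F1145 lowered the counts to 596 and 447.

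**Figure D2:**
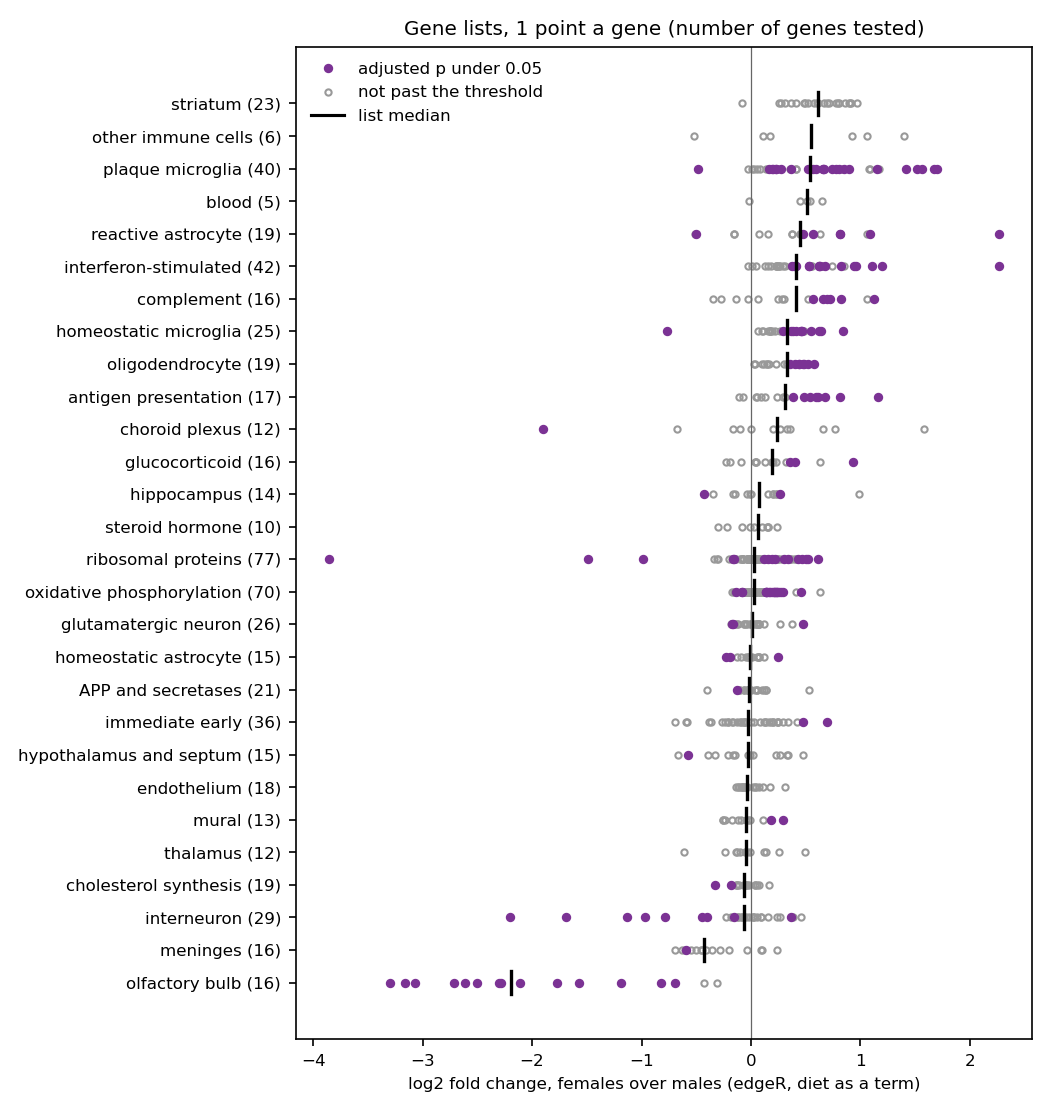
Log2 fold change of females over males on the x axis for the tested genes of each list, 1 point a gene, filled where the adjusted p was under 0.05, with a bar at the list median. The plaque microglia list centres at 0.54 and the olfactory bulb list at -2.19, while the glutamatergic neuron list centres at 0.01.

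Genes of plaque-associated microglia were higher in females. Of 40 tested genes of that list, 24 rose and 1 fell, beside 6.36% and 4.92% of all autosomal genes, and the list median was 0.54 (log2). The list held 2 further genes that are not in the table. Trem2, the lipid-sensing receptor that drives the plaque program, had 45.0, 23.3, 19.95, 34.5 and 44.1 RPM in HFD females and 39.0, 16.7, 21.3, 17.1, 18.5 and 17.2 RPM in ND females. In HFD males it had 19.4, 29.7, 11.9 and 13.8 RPM, and in ND males 11.6, 12.2, 9.26 and 11.9 RPM. Every ND male thus lay below every female, while HFD male F1065 lay above 7 of the 11 females. The log2 fold change of Trem2 was 0.90 (SE 0.22, adjusted p = 0.0158). Its adaptor Tyrobp ranged from 19.5 to 51.2 RPM (median 25.3) in females and from 12.9 to 36.4 RPM (median 15.9) in males, with a log2 fold change of 0.80 (SE 0.19, adjusted p = 0.0135).

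Surface receptors of the same program were also higher. Clec7a, the receptor Dectin-1, had a median of 5.35 RPM in females (1.38 to 12.5) and 0.801 RPM in males (0.297 to 8.74), a log2 fold change of 1.68 (SE 0.46). The integrin Itgax reached a median of 3.91 RPM in females (3.202 to 12.6) and 1.27 RPM in males (0.396 to 8.84), a log2 fold change of 1.52 (SE 0.44). Cd72, an inhibitory receptor, had a median of 1.08 RPM in females (0.343 to 2.43) and 0.394 RPM in males (0.195 to 0.971), at low counts and with 53.2% of its 50-base words shared with other transcripts. For each of the 3 receptors the ranges of the sexes overlapped, and the highest male values of Clec7a and Itgax were those of F1065. Clec7a lost its call (adjusted p = 0.0259 with all mice) when F1145, F1079 or F1131 was left out. Itgax lost its call without F1063, A1095, F1129, F1145, F1079, F1128 or F1131.

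Lysosomal and lipid genes of plaque microglia followed. Ctsz, a lysosomal cathepsin, ranged from 47.4 to 86.2 RPM (median 57.6) in females and from 35.7 to 59.7 RPM (median 38.0) in males, with a log2 fold change of 0.60 (SE 0.11, adjusted p = 0.00202). Ctsd, the aspartyl protease cathepsin D, had medians of 377 RPM in females and 271 RPM in males, a log2 fold change of 0.52 (SE 0.11). Apoe, the main lipid carrier of the brain and made chiefly by astrocytes, differed least among these, with 766 to 1085 RPM in females and 693 to 922 RPM in males (log2 fold change 0.20, SE 0.06, adjusted p = 0.0345). Apoe lost its call with the GC and length offset (0.08, adjusted p = 0.358), with library totals as the only scaling (adjusted p = 0.0626), and without any 1 of 9 mice. Cst7, a cystatin of activated microglia, had a median of 6.91 RPM in females (4.26 to 24.5) and 1.41 RPM in males (0.322 to 17.9). Its log2 fold change of 1.70 (SE 0.54) stood at an adjusted p of 0.0496, and the call was kept only when F1076, F1094 or F1065 was the mouse left out. The 1 gene of the list that fell was Igf1, a growth factor also made by neurons (log2 fold change -0.48).

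**Figure D3:**
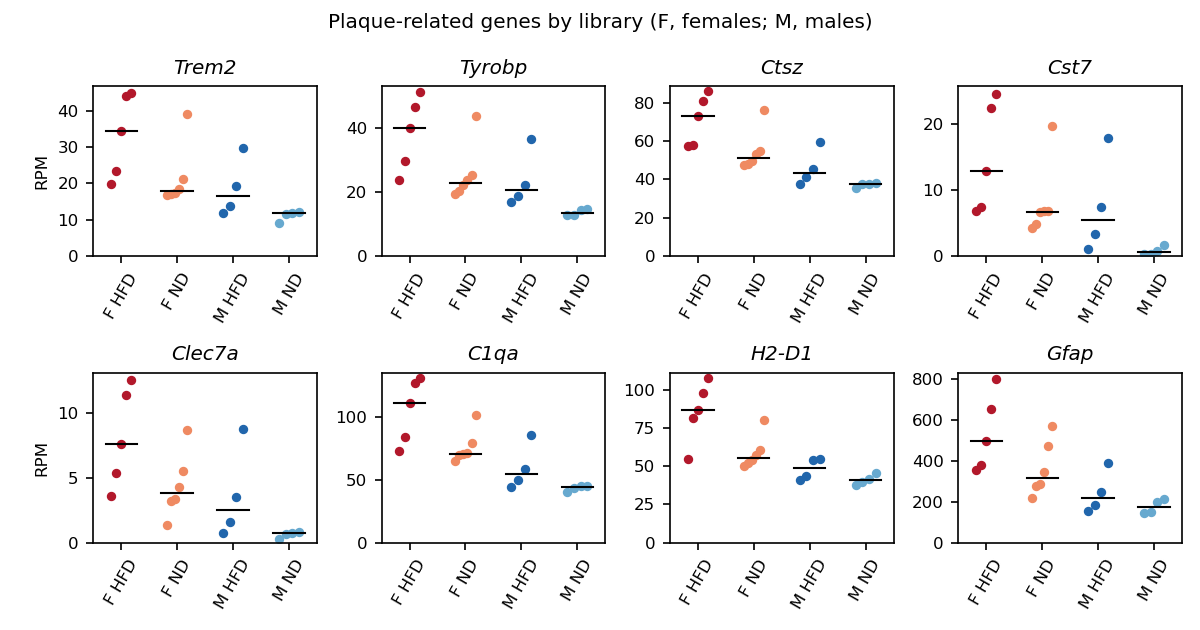
RPM on the y axis for 8 genes of microglia, antigen presentation and astrocytes in the 4 groups (F, females; M, males), 1 point a library, with a bar at the group median. In ND males Cst7 lay between 0.322 and 1.74 RPM, below all 11 females, while HFD male F1065 reached 17.9 RPM.

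The count of plaque genes depended on single mice. It was 13 without HFD male F1129, 11 without HFD male F1145 and 13 without ND male F1131, and the list median over all leave-one-out fits stayed between 0.49 and 0.59. Without HFD male F1065, 27 rose. F1065 was the highest of the 8 males in 30 of the 40 genes. Within the diets, 2 of the 40 genes rose in HFD females over HFD males (background 0.486% of autosomal genes, and 9.19% higher and 7.95% lower before adjustment) and 3 in ND females over ND males (background 2.46%, and 9.82% higher and 8.77% lower before adjustment). The list median was 0.56 in HFD mice and 0.52 in ND mice, and 2 genes had an unadjusted p under 0.05 for the interaction of sex and diet.

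Genes of resting microglia were also higher, with a smaller shift. Of 25 tested genes 11 rose (44%) and 1 fell (4%), with a median of 0.33. Fcrls, a microglial Fc receptor-like gene, had a median of 40.2 RPM in females (34.7 to 64.1) and 28.3 RPM in males (22.1 to 43.2), a log2 fold change of 0.62 (SE 0.12). Irf8, a transcription factor of microglial activation, had a log2 fold change of 0.84 (SE 0.19), and Csf1r, the survival receptor of microglia, 0.29 (SE 0.07), both past the threshold. Tmem119, Cx3cr1 and P2ry12 did not pass with all mice. Tmem119 had a log2 fold change of 0.18 (SE 0.07, adjusted p = 0.102). Cx3cr1, the fractalkine receptor, had one of 0.17 (SE 0.07, adjusted p = 0.135), and P2ry12, a purine receptor of resting microglia, one of 0.10 (SE 0.06, adjusted p = 0.315). Without HFD male F1065, Cx3cr1 passed (0.23, adjusted p = 0.0281). The gene that fell was Sall1, a transcription factor of microglial identity, with 25.5 to 43.0 RPM in females and 34.2 to 89.0 RPM in males. Sall1 lost its call with the olfactory bulb covariate described below. The count of 11 was 4 to 7 when F1063, F1100, F1252, A1095, F1129, F1145, A1092, F1079, F1080 or F1131 was left out, and 6 in the thinned libraries. In bulk tissue more cells of a type and more RNA per cell cannot be told apart. In an alternative added after seeing the data, the list mean of each mouse entered the fit as a covariate. There 1 plaque gene stayed higher and the plaque list median was 0.06. The covariate itself moved with sex, with a median of 4.11 log2 CPM in females and 3.82 in males. It therefore takes up part of any sex difference shared by microglial genes, and the fit cannot tell cell number from RNA per cell.

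Complement and antigen presentation genes rose alongside. Of 16 complement genes 6 rose (37.5%) and 0 fell, with a median of 0.41. The 3 chains of C1q, which tags synapses and debris and comes from microglia, rose together. C1qa ranged from 65.1 to 130.7 RPM (median 79.0) in females and from 40.3 to 85.3 RPM (median 45.1) in males, with a log2 fold change of 0.82 (SE 0.14, adjusted p = 0.00117). C1qb had a log2 fold change of 0.70 (SE 0.12) and C1qc 0.72 (SE 0.13). Of 17 genes of antigen presentation 8 rose (47.1%) and 0 fell, with a median of 0.31. H2-D1, a classical class I heavy chain, had a median of 60.7 RPM in females (50.2 to 107.6) and 42.7 RPM in males (37.5 to 54.6), a log2 fold change of 0.68 (SE 0.12). H2-K1 had a log2 fold change of 0.61 (SE 0.11), and the non-classical H2-T23 one of 0.48 (SE 0.09). Class I genes are alike in sequence, with 9.87% to 17% of the 50-base words of these 3 shared with other transcripts, so their reads may be divided unevenly.

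Genes induced by interferon had 16 of 42 higher (38.1%, beside 6.36% of all autosomal genes) and 0 lower, with a median of 0.41. Cxcl10, a chemokine that attracts T cells, had a median of 3.03 RPM in females (0.384 to 8.34) and 0.640 RPM in males (0.215 to 2.04), a log2 fold change of 2.26 (SE 0.35, adjusted p = 0.000525). Bst2, or tetherin, had a log2 fold change of 0.94 (SE 0.20), and Oas1a, a sensor of double-stranded RNA that shares 60% of its 50-base words with relatives, 1.19 (SE 0.26). The count of 16 was 6 to 10 when F1100, A1095, F1129, F1145, A1092 or F1104 was left out, and 4 without the term for diet.

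Reactive astrocyte genes had 6 of 19 higher (31.6%) and 1 lower (5.26%), with a median of 0.45. Cxcl10, also in the interferon list, is 1 of the 6, and C3 is also in the complement list. Gfap, the intermediate filament of reactive astrocytes, had 655, 378, 354, 499 and 800 RPM in HFD females and 570, 345, 473, 288, 277 and 221 RPM in ND females. In HFD males it had 247, 388, 154 and 185 RPM, and in ND males 199, 216, 152 and 145 RPM. The ranges met, since 6 females lay below HFD male F1065, and the log2 fold change was 1.08 (SE 0.22, adjusted p = 0.00506). Aspg, an asparaginase of reactive astrocytes, had a log2 fold change of 0.81 (SE 0.16). Serpina3n, a protease inhibitor, had one of 0.81 (SE 0.23, adjusted p = 0.0315), a call that was lost without F1252, A1095, F1129, F1145, F1079 or F1131. The list count was 3 without F1129, F1145 or F1131. The gene that fell was Amigo2, an adhesion protein that is also found in neurons (-0.50). Genes of resting astrocytes had 1 of 15 higher (6.67%, near the background) and 2 lower (13.3%), with a median of -0.01. S100b, a calcium-binding protein, rose (0.25, SE 0.06). Both Gja1, the gap junction protein connexin 43 (-0.23, SE 0.06), and the glutamate transporter Slc1a3 (-0.19, SE 0.05) fell.

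Genes that make and cut the precursor protein were called no more often than all autosomal genes. Of 21 genes of App, the secretases and the enzymes that degrade amyloid, 0 were higher and 1 lower (4.76%), with a median of -0.02. App had 2668 to 3384 RPM (median 2849) in females and 2188 to 3272 RPM (median 2675) in males, a log2 fold change of 0.14 (SE 0.06, adjusted p = 0.170). Without HFD male F1065, App passed the threshold (0.18, adjusted p = 0.04999). Transgene reads that align to the mouse gene cannot be told apart from its own. The gene that fell was Ncstn, a subunit of gamma-secretase (-0.12, SE 0.04, adjusted p = 0.0345), and its call was lost in the thinned libraries (adjusted p = 0.0523) and without any 1 of 8 mice.

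Calls among markers of glutamatergic cortical neurons were near the share over all autosomal genes. Of 26 such genes 1 rose (3.85%) and 2 fell (7.69%), beside 6.36% and 4.92% of all autosomal genes. The list median was 0.01. Slc17a7, the vesicular glutamate transporter of cortical neurons, had 976 to 1534 RPM in females and 1031 to 1644 RPM in males (log2 fold change -0.15, SE 0.09, adjusted p = 0.337). Nrgn, a calmodulin-binding protein of dendrites, rose (0.47, SE 0.15, adjusted p = 0.0449), a call lost without any 1 of 12 mice, and both Rasgrf2, an exchange factor for Ras (-0.17, SE 0.04), and Gria1, an AMPA receptor subunit (-0.17, SE 0.05), fell. Gria1 lost its call without A1095 or F1079. Of 36 immediate early genes, which neurons transcribe on activity, 2 rose (5.56%, near the background) and 0 fell, with a median of -0.03. Vgf, the precursor of secreted neuropeptides, had a log2 fold change of 0.69 (SE 0.11), and Egr3, a zinc finger factor, one of 0.47 (SE 0.13) that lost its call without A1095, F1079 or F1131.

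Of 29 interneuron genes 1 rose (3.45%) and 8 fell (27.6%), with a median of -0.07. Those that fell most are shared with newborn neurons of the olfactory bulb. Sp8, a zinc finger factor of olfactory bulb and caudal interneurons, had a median of 3.31 RPM in females (1.74 to 10.7) and 18.2 RPM in males (3.204 to 33.2), a log2 fold change of -2.20 (SE 0.32, adjusted p = 0.000461). The homeobox factors Dlx1 (-1.14, SE 0.17) and Dlx2 (-0.79, SE 0.15) fell as well. Gad1, which makes GABA, had a log2 fold change of -0.44 (SE 0.13, adjusted p = 0.0320), lost without A1095, F1145, F1073, F1079 or F1131. Sst, the neuropeptide somatostatin of cortical interneurons, was the gene that rose, with 93.6 to 139.8 RPM (median 118.9) in females and 81.4 to 101.0 RPM (median 89.6) in males (0.37, SE 0.07, adjusted p = 0.00263). Pvalb, the calcium-binding protein of fast-spiking interneurons, had a log2 fold change of 0.46 (SE 0.17, adjusted p = 0.0838), and passed by DESeq2 (adjusted p = 0.0330) and without F1074 (adjusted p = 0.0398). Slc32a1, the vesicular GABA transporter, had one of 0.24 (SE 0.16, adjusted p = 0.364). Without F1145 or F1079 the count of lower interneuron genes was 5.

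The widest shift of any list was that of the olfactory bulb, a region outside the neocortex. Of its 16 tested genes 14 fell (87.5%) and 0 rose in females, with a median log2 fold change of -2.19. Th, which makes dopamine in periglomerular neurons of the bulb, had 2.68, 2.60, 1.71, 3.98 and 2.81 RPM in HFD females and 4.79, 10.9, 5.76, 3.00, 9.96 and 6.09 RPM in ND females. In HFD males it had 17.98, 2.33, 6.74 and 31.5 RPM, and in ND males 44.8, 19.7, 17.1 and 45.8 RPM. All 4 ND males lay above every female, while HFD males F1065 and F1129 lay within the female range. The log2 fold change of Th was -2.28 (SE 0.36, adjusted p = 0.00102). Eomes, a T-box factor of mitral and tufted cells, had a median of 0.385 RPM in females (0.0769 to 7.59) and 13.7 RPM in males (0 to 31.9), a log2 fold change of -3.30 (SE 0.61). Tbx21, another T-box factor of these cells, had one of -3.07 (SE 0.53), and Slc6a3, the dopamine transporter, one of -2.71 (SE 0.36). The mean log2 CPM of the list ran from 1.47 to 3.498 in females and from 1.24 to 4.96 in males. F1065 was the lowest of the 8 males in 16 of the 16 genes.

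**Figure D4:**
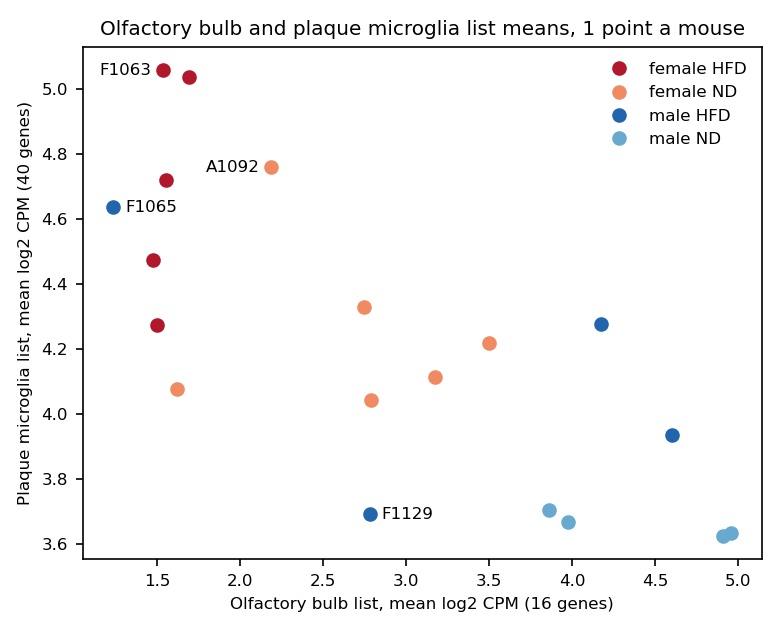
Mean log2 CPM of the olfactory bulb list on the x axis and of the plaque microglia list on the y axis, 1 point a mouse, coloured by group. HFD male F1065 has the lowest olfactory bulb mean of all mice, 1.24, and the highest plaque microglia mean among males, 4.64, while the 4 ND males lie at 3.63 to 3.70 on the plaque axis.

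Because the olfactory bulb signal moved with sex, the fit was repeated with the mean of that list as a covariate. Sex and diet took 64.8% of the variance of that mean, and the median standard error over autosomal genes was 0.10 with the covariate and 0.07 without it. At an adjusted p under 0.05, 23 genes were then higher and 11 lower in females. Before adjustment, 944 higher and 721 lower genes had a p under 0.05. No gene of the plaque microglia, homeostatic microglia, complement, antigen presentation, interferon, reactive astrocyte, oligodendrocyte or interneuron lists passed the adjusted threshold. The median of the plaque list was 0.34, with 37 of 40 genes above 0 and 5 past an unadjusted p of 0.05, and that of the interferon list was 0.42. The median of the homeostatic microglia list was 0.14. Of its 25 genes, 1 was higher and 0, Sall1 included, were lower at an unadjusted p under 0.05.

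**Figure D5:**
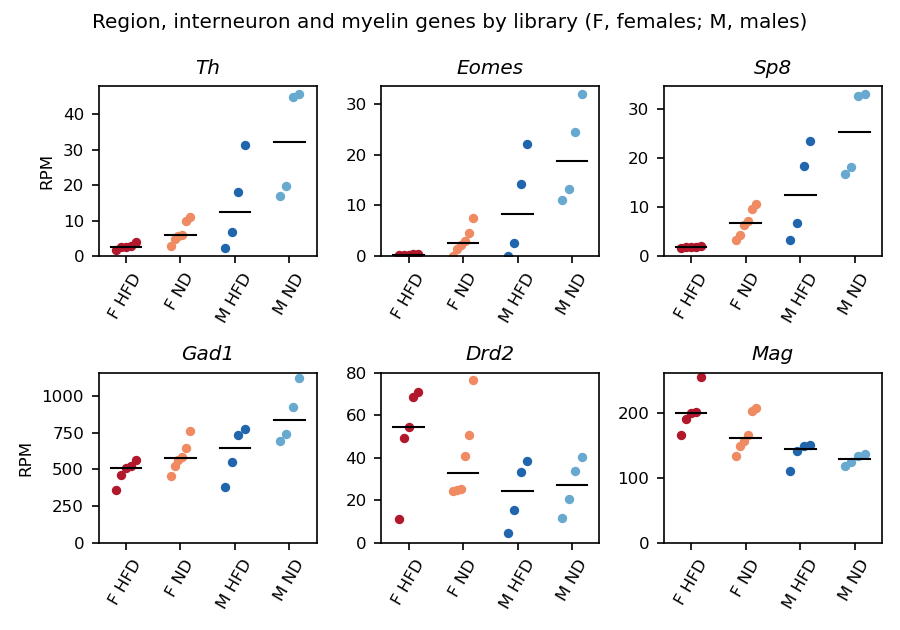
RPM on the y axis for genes of the olfactory bulb (Th, Eomes), interneurons (Sp8, Gad1), striatum (Drd2) and myelin (Mag) in the 4 groups (F, females; M, males), 1 point a library, with a bar at the group median. Eomes reaches at most 7.59 RPM in the 11 females, and HFD male F1065 is at 0.

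Markers of other regions also varied between mice. Of 23 genes of striatal projection neurons 0 passed the adjusted threshold, while before adjustment 11 had a p under 0.05 and lay higher, 0 lower, and the median was 0.61. Drd2, the dopamine D2 receptor of striatal neurons, had 11.1, 49.1, 68.7, 54.3 and 70.7 RPM in HFD females and 24.4, 25.2, 24.6, 76.5, 50.5 and 40.6 RPM in ND females. In HFD males it had 33.1, 15.5, 38.6 and 4.61 RPM, and in ND males 33.8, 11.8, 40.5 and 20.5 RPM. HFD female F1063 and HFD male F1145 stood far below the rest of their groups. The log2 fold change of Drd2 was 0.86 (SE 0.39, adjusted p = 0.168), that of Ppp1r1b, the phosphoprotein DARPP-32, 0.69 (SE 0.32, adjusted p = 0.179), and that of Scn4b, a sodium channel subunit, 0.80 (SE 0.31, adjusted p = 0.104). F1063 was the lowest of the 11 females in 22 of the 23 genes, and without F1063, 3 striatal genes rose at the adjusted threshold. Of 14 hippocampal genes 1 rose and 1 fell (7.14% each, beside 6.36% and 4.92% of all autosomal genes). Prox1, a homeobox factor of dentate granule cells, rose (0.26, SE 0.09, adjusted p = 0.0493, lost without any 1 of 15 mice). Stxbp6 fell (-0.43, SE 0.06). The thalamus list had 0 of 12 in either direction. The list of hypothalamus and septum had 1 of 15 lower (6.67%), Zic2, a zinc finger factor (-0.57, SE 0.18, adjusted p = 0.0486, lost without any 1 of 15 mice).

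Genes of oligodendrocytes, which myelinate axons, were higher in females. Of 19 oligodendrocyte genes 8 rose (42.1%) and 0 fell, with a median of 0.32. Mag, an adhesion protein of the innermost myelin layer, had a median of 190 RPM in females (134 to 255) and 135 RPM in males (110.5 to 150), a log2 fold change of 0.48 (SE 0.09, adjusted p = 0.00310). Trf, the iron carrier transferrin, had one of 0.57 (SE 0.11) and Olig1, a lineage factor, one of 0.36 (SE 0.07). Mbp, the myelin basic protein, had one of 0.40 (SE 0.12, adjusted p = 0.0378), lost without any 1 of 12 mice. The oligodendrocyte count was 5 without any of the mice F1100, F1252, A1095, F1065, F1145, A1092, F1073, F1102, F1079, F1080 and F1131. The endothelium list had 0 of 18 and the blood list 0 of 5 in either direction. In the mural list, of pericytes and smooth muscle, 2 of 13 rose (15.4%), the receptor Notch3 (0.29) and the proteoglycan Cspg4 (0.18). The mural list median was -0.04, with 9 of the 13 genes below 0. In the meninges list 1 of 16 fell (6.25%), the matrix protein gene Islr (-0.59, SE 0.17, adjusted p = 0.0342, lost without any 1 of 10 mice). The meninges list median was -0.43, with 13 genes below 0. Before adjustment 7 of the 16 had a p under 0.05 and lay lower, 0 higher, beside 12.3% of all autosomal genes lower. Without HFD male F1065, 6 meninges genes fell at the adjusted threshold. In the choroid plexus list 1 of 12 fell (8.33%), the water channel Aqp1 (-1.90, SE 0.47), while the list median was 0.24 and 7 genes lay above 0. The list of other immune cells had 0 of 6, and 14 of its 20 listed genes, among them the T cell marker Cd3e, were not tested.

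Of the hormone and metabolic lists, that of the respiratory chain had the most calls. With both diets together, none of 10 genes of sex steroid and related hormone signalling passed the adjusted threshold by edgeR (without adjustment, 1 gene higher and 1 lower had a p under 0.05). In ND females over ND males 1 of the 10 was higher (background 2.46%). Of 16 genes induced by glucocorticoids 3 rose (18.8%), among them the metallothionein Mt1 (0.36, SE 0.06) and the transcription factor Cebpd (0.93, SE 0.20), and 0 fell. Of 19 genes of cholesterol synthesis 0 rose and 2 fell (10.5%), Lss, or lanosterol synthase (-0.33, SE 0.06), and Dhcr7, the reductase of the last step (-0.18, SE 0.05). Dhcr7 lost its call in the thinned libraries and without F1100, F1252, F1079 or F1131. Of 70 nuclear genes of the respiratory chain 17 rose (24.3%) and 3 fell (4.29%), beside 6.36% and 4.92% of all autosomal genes. The list median was 0.03. The all-gene shares take no account of gene length or GC content. Uqcrq (0.46, SE 0.06) and Uqcr10 (0.25, SE 0.04), small subunits of complex III, had no overlap between the sexes, and Ndufc1, of complex I, had a log2 fold change of 0.29 (SE 0.04).

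Among the genes with the smallest p-values were several that share sequence with other transcripts, ribosomal protein genes among them. Rps29, a protein of the small ribosomal subunit, had 0.932 to 1.79 RPM in females (median 1.54) and 16.6 to 22.8 RPM in males (median 20.9), a log2 fold change of -3.85 (SE 0.10, adjusted p = 1.44e-17). The ranges lay far apart in both diets. Rps13 had a log2 fold change of -1.49 (SE 0.18), and the pseudogene Atp5c1-ps one of -1.43 (SE 0.18). The share of 50-base words found in other transcripts was 27% for Rps29, 15.6% for Rps13 and 5.88% for Atp5c1-ps. Rps10 (0.43, SE 0.05) and Rpl29 (0.46, SE 0.06), which share 52.9% and 47.4% of their 50-base words with other transcripts, were higher in females, as were Gm14303 (0.66, SE 0.04), which shares 100% of them, the ferritin light chain Ftl1 (0.49, SE 0.06) at 91.3%, and Tmsb10, an actin-binding thymosin, at 39.6% (0.94, SE 0.09). How reads of near-identical copies were placed was not tested, and these values are uncertain. Of all 77 ribosomal protein genes tested 11 rose (14.3%) and 5 fell (6.49%), with a median of 0.03.

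Other genes with the smallest p share from 0% to 30.5% (Irs1) of their 50-base words with other transcripts. Cst3, the secreted protease inhibitor cystatin C of glia, had 223 to 342 RPM in females (median 292) and 115 to 207 RPM in males (median 162), without overlap (0.82, SE 0.09, adjusted p = 1.19e-05). Ccdc124, a ribosome-associated protein, had 41.9 to 45.5 RPM in females and 30.2 to 36.4 RPM in males (0.40, SE 0.04). Crocc, the ciliary rootlet protein (0.65, SE 0.07), Col11a2, a collagen chain (0.55, SE 0.07), and the deubiquitinase Josd2 (0.59, SE 0.07) also lay higher in every female than in every male. Fam171b (-0.35, SE 0.05) and Lars2 (-0.70, SE 0.04) lay lower in every female, as did Nucks1, a chromatin-binding protein (-0.21, SE 0.03), at 10.6% shared words, and Rn28s1 (-0.62, SE 0.05). Dync1i1, a chain of the dynein motor (-0.43, SE 0.06), and Irs1, an adaptor of the insulin receptor (-0.40, SE 0.05), fell with overlapping ranges. With the olfactory bulb covariate Gm14303, Ccdc124, Tmsb10, Crocc, Cst3, Rps10, Col11a2, Josd2, Rps29, Lars2, Rn28s1, Rps13, Nucks1, Atp5c1-ps and Uqcr10 kept an adjusted p under 0.05 in the same direction.

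Promoters of genes that moved together were searched for the 8-letter word GAGGAAGT on both strands, in the 250 bases before the start in the RefSeq table of build GRCm38.p6. The word fits the ETS factor PU.1, which binds in microglia. Of 34 plaque list genes with a promoter there, the word was in 2 (5.88%), beside 2.64% of 10641 autosomal genes tested, 18 of 664 genes higher in females (2.71%) and 19 of 527 genes lower in females (3.61%). The plaque list genes with the word were Cd72 and Spp1. The word was also in C1qc of the complement list (1 of 9, 11.1%) and Inpp5d of the homeostatic microglia list (1 of 18, 5.56%). The stretches of Cd72 and C1qc, both higher in females, are shown on the gene's strand, with the word in capitals as its reverse complement. The stretches lie at chr4:43454657-43454686 and chr4:136893091-136893120, both on the minus strand.
Cd72: gccaaagacctACTTCCTCttttatgactt
C1qc: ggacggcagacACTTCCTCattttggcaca
A match is a description of letters and not of binding.

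Within the diets separately, fewer autosomal genes passed. HFD females over HFD males gave 69 genes higher (0.486%) and 76 lower (0.535%), and ND females over ND males gave 349 higher (2.46%) and 212 lower (1.49%). Single mice moved these counts strongly. Without F1145 the HFD comparison gave 11 and 10, and without F1063 it gave 188 and 236. Without F1079 the ND comparison gave 113 and 40. For the interaction of sex and diet 0 genes passed the adjusted threshold by edgeR and also by DESeq2, and 744 (5.24%) had an unadjusted p under 0.05 by edgeR, against 674 by DESeq2. The smallest p for the interaction belonged to Pknox1, a homeobox factor, with a log2 fold change of 0.11 in HFD mice and -0.30 in ND mice (unadjusted p = 0.000298), followed by Snhg14, a host of small nucleolar RNAs (-0.19 and 0.33), and Gsr, glutathione reductase (0.31 and -0.12). None passed after adjustment over all genes, so a sex difference that depends on diet was not detected for any single gene with 4 to 6 mice a group.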

How the data were processed

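Cortex RNA of 19 APP23 mice was sequenced, 1 library per mouse; the tissue label says brain, the extraction notes cortex. Per the labels, the authors aligned reads to mm9 with Subread 1.4.0 and counted them per gene with featureCounts. The deposited table holds raw counts and, beside them, RPM, which the authors scaled by the library total. Strand was not given in the sources used here, so overlapping antisense genes cannot be told apart.

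Counts were tested with edgeR 4.0.16 in R 4.3.3 (quasi-likelihood F test, statmod 1.5.0, TMM scaling, filterByExpr with a minimum count of 10 and total of 15). The model held diet and sex, or the 4 groups for single diets and the interaction. Adjusted p-values are Benjamini-Hochberg over all 14834 genes tested, sex chromosomes included, with a threshold of 0.05; autosomal genes were then counted. SE is the size of the log2 fold change over the square root of F. List means are log2 CPM with a prior count of 2. The edgeR p-values weigh a difference against the variation between these mice, estimated with information shared across genes. The script was tested on simulated data. Groups within a sex and diet differed beyond counting noise in every one of 37 library pairs (chi-square per degree of freedom 4.51 to 18.3), so none is a copy.

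Chromosomes came from RefSeq GRCm38.p6 and GENCODE names (101 genes unplaced); GC, length and 50-base words shared with other genes came from GENCODE transcripts, another build than the counts. Promoters came from RefSeq. Figures used matplotlib 3.10.9. Alternatives were DESeq2 1.42.0, limma-voom (limma 3.58.1), RLE, upper quartile or no scaling beyond totals, other filters, thinning, autosomal genes only, no diet term, a 4-group fit, olfactory bulb or blood covariates, leaving out each mouse or the 2 mice whose identifiers begin with A, and, added after seeing the data, GC and length offsets, genes with under 1% shared words, and a homeostatic microglia covariate.

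Named genes are the 10 with the smallest p in each direction, the 3 with the smallest p in each list, fixed anchor genes of each cell type, and the 3 with the smallest interaction p; the text names fewer, and Igf1, Amigo2, Notch3, Cspg4 and Cd3e were named after their values were seen. Members and lists were chosen with earlier results of these data known.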

Additional observations from a re-analysis of the deposited data

Results flagged for a closer look

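Among the 91 named genes, each looked at in the 4 groups, 27 of 364 sets of values held a mouse far from the rest of its group, where chance flags about 1 in 20. ND female A1092 stood above the other 5 ND females in 10 genes of microglia and antigen presentation. It had 39.0 RPM of Trem2 (others 16.7 to 21.3), 43.8 of Tyrobp (19.5 to 25.3), 19.8 of Cst7 (4.26 to 6.87), 9.09 of Itgax (3.202 to 3.91), 76.0 of Ctsz (47.4 to 54.7) and 494.7 of Ctsd (317.5 to 376.8). It also had 101.5 RPM of C1qa (65.1 to 79.0), 107.7 of C1qb (67.1 to 79.7), 80.5 of C1qc (50.4 to 58.9) and 79.8 of H2-D1 (50.2 to 60.7). Its plaque microglia list mean, 4.76 in log2 CPM, was the highest of the ND females, and 33 of the 40 genes were highest there.

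HFD female F1063 had 11.1 RPM of Drd2 (others of its group 49.1 to 70.7), 153.9 of Ppp1r1b (495 to 673), 5.07 of Aqp1 (0.447 to 0.704), 75.9 of Ncstn (66.1 to 69.3) and 42.8 of Dhcr7 (32.7 to 34.99). HFD female F1094 was low in H2-K1 with 18.9 RPM (29.1 to 33.4), and HFD female F1100 in Irs1 with 18.3 (20.1 to 21.0).

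Among HFD males, F1065 had 158.2 RPM of Csf1r (others 120.2 to 123.7), and F1145 had 110.3 of S100b (96.5 to 101.2) and 110.5 of Mag (140.9 to 149.7). ND male F1079 had 0.396 RPM of Cd72 (0.195 to 0.215), which is a few reads.

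Single ND females were also apart in Rps10 (F1074, 16.9 RPM, others 18.1 to 18.5), Rps29 (A1092, 1.03, others 1.46 to 1.64), Nucks1 (F1104, 191.6, others 195.8 to 206.1), Dync1i1 (F1102, 118.3, others 140.3 to 145.6), Rasgrf2 (F1102, 197.3, others 220.1 to 234.3) and Vgf (F1073, 252.7, others 199.4 to 213.7).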

How the results depend on the processing

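The counts of 904 autosomal genes higher and 699 lower in females stayed within 1.5 times with DESeq2 (1005 and 895), limma-voom (826 and 678), library totals (847 and 745), thinned libraries (738 and 655), GC and length offsets (633 and 650) and the other scalings, filters and models tried, apart from these. They were 23 and 11 with the olfactory bulb list mean as a covariate, 17 and 20 with that covariate and the GC and length offsets, 252 and 137 with the homeostatic microglia list mean, 556 and 456 without the 2 mice whose identifiers begin with A, and 527 and 412 over the 8563 autosomal genes with under 1% shared words, where fewer genes were tested. For each of the first 3 the cause was not tested. Of the 1603 called genes, 28 were called again with the olfactory bulb covariate and 1288 in the thinned libraries, in the same direction each time. Leaving out 1 mouse gave 596 to 962 higher and 447 to 818 lower.

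In HFD mice DESeq2 called 212 higher and 260 lower, library totals alone 49 lower and thinned libraries 47 lower, and leaving out 1 mouse gave 11 to 188 higher and 10 to 236 lower. In ND mice DESeq2 called 341 lower, and leaving out 1 mouse gave 113 to 402 higher and 40 to 272 lower. The interaction count was 0 in every fit run.

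Direction turned for some genes, 4 of which were called with all mice and no covariate: Eomes (-3.30), Islr (-0.59), Gad1 (-0.44) and Serpina3n (0.81). Eomes is itself a member of the olfactory bulb list, and for the others the cause was not tested. With the olfactory bulb covariate this was so for App (-0.0399), Gad1 (0.0117), Eomes (0.12), Islr (0.14) and Pknox1 (0.0214), and with the GC and length offsets added for Tmem119 (-0.0394), Gad1 (0.0151), Eomes (0.13), Islr (0.11) and Pknox1 (0.0364). With the homeostatic microglia covariate it was so for P2ry12 (-0.0893), Cx3cr1 (-0.11) and Serpina3n (-0.0192). Of 91 named genes, the olfactory bulb covariate ended 63 calls, the homeostatic one 44, leaving out the diet term 9, thinning 5, and the GC and length offsets 5.

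No paired analysis was possible because the labels give no replicate numbers that pair mice across groups. Depth limits genes under about 1 RPM, such as Cd72, where a library holds few reads.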
